A study of Mus musculus with 2 samples.

Results

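The cells described here are insulin-producing cells of the Tg7 library in which Ins1, one of the mouse's pair of insulin genes, had all but disappeared from the transcriptome while the other, Ins2, was still abundant. They were chosen from the measured counts. A barcode was a member if it held at least 1000 unique molecular identifiers (UMIs, each counting 1 captured mRNA molecule) and at most 20% mitochondrially encoded UMIs. In addition, Ins1 and Ins2 had to make up at least 3% of its UMIs and Ins1 alone less than 0.5%, with Gcg under 4%, Sst under 0.3% and Ppy under 1%. This rule found 99 cells among the 1123 barcodes of the Tg7 library, and 1978 barcodes were measured in all. They are called Ins1-low cells below.

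By single-cell RNA-seq in droplets, the study set pancreatic islets of Tg7 mice, a line with β-cell-specific overexpression of miR-7a2 used to study the loss of β-cell identity, beside islets of Wild-type littermates. Both groups were male C57Bl6 mice 12 weeks old. According to the study's methods, both genotypes also carried a tdTomato reporter that is switched on by a Cre recombinase under the rat Ins2 promoter, so that β-cells and their descendants are marked. The promoter of the miR-7 transgene and the number of mice behind each library are not given in the sources used here. Each group was 1 library, so no test between genotypes was possible, and cells of 1 library are not replicates of a mouse. The Ins1-low cells are compared with 2 groups. The first was the 396 other Tg7 insulin cells, which met the same rule but had Ins1 at 0.5% or more, and the second was the 471 Wild-type cells that passed the same filters and hormone limits, whatever their Ins1.

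Mice carry a pair of insulin genes. Ins2 is the ancestral gene and corresponds to the single insulin gene of other mammals, whereas Ins1 arose as a retroposed copy and is expressed in β-cells. Mature β-cells transcribe both under the control of transcription factors such as Pdx1, Neurod1 and Mafa, and they sense glucose through proteins such as the transporter Slc2a2 and the ATP-sensitive potassium channel formed by Abcc8 and Kcnj11. In dedifferentiation such genes decline and genes seldom found in a mature β-cell, such as Aldh1a3 and gastrin (Gast), appear.

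The sequences below come from RefSeq (build GRCm38.p6). The first is the mature microRNA that the Tg7 transgene overexpresses, encoded at chr7:78888295-78888317 on the plus strand, with its seed (bases 2 to 8) in capitals. The deposited counts do not measure mature microRNAs.

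miR-7a-5p: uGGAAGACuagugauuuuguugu

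The next are the 250 bases before the annotated start of Ins1 (chr19:52264047-52264296, plus strand), of Iapp (chr6:142298175-142298424, plus strand) and of Ucn3 (chr13:3945350-3945599, minus strand), each written 5′ to 3′ on the strand of its gene. They are shown because Ins1 and Ucn3 were low and Iapp was high in the cells described. Capitals mark every TAAT, the core recognised by homeodomain factors such as Pdx1 and Nkx6-1, and every CATCTG, an E-box, on either strand (ATTA and CAGATG on the other).

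Ins1: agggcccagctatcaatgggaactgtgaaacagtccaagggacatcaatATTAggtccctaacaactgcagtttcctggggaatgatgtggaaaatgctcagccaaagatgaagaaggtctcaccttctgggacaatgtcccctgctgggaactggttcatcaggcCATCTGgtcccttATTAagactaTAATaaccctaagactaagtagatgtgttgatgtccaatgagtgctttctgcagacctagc

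Iapp: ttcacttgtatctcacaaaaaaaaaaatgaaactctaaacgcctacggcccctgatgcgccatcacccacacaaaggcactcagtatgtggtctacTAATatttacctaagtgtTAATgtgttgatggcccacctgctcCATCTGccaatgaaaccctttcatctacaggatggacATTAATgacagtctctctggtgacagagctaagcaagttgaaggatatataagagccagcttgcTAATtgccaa

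Ucn3: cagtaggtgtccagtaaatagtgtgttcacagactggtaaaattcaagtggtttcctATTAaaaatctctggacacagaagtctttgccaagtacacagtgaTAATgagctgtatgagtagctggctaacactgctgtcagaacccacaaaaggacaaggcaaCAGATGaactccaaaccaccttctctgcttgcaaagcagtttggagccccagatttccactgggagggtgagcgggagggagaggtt

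The Ins1 window held 3 matches to TAAT and 1 to CATCTG, the Iapp window 5 and 1, and the Ucn3 window 2 and 1. Of all 32851 promoter windows of this length, 54.9% held TAAT and 14.4% held CATCTG on either strand. All 3 windows thus held both motifs, whether the gene was low or high in these cells, and a match is a description of the letters, not a measured binding site.

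The Tg7 library held 29931777 UMIs and the Wild-type library 30829078 UMIs over 31054 features, and no cell barcode occurred in both. The filters on UMIs and mitochondrial share kept 1006 Tg7 and 755 Wild-type barcodes. Of the kept Tg7 barcodes, 154 had insulin with Ins1 under 0.5%, and 55 of them were set aside by the limits on the other hormones (25 for Gcg, 19 for Sst and 30 for Ppy, some for several). Ins1-low cells were shallower than the cells they were compared with, at a median of 20446 UMIs against 29907 in other Tg7 insulin cells and 49623 in Wild-type insulin cells, and 12 Ins1-low cells held under 5000 UMIs. Their median mitochondrial share was 4.97%, against 4.38% and 3.69%. The part of depth and mitochondrial share in the differences below was not tested, except where values at matched depth are given. Every interval in brackets is a 95% interval for counting error only, and it does not cover the spread between cells or between mice.

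Ins1-low cells made up 20% of the 495 Tg7 insulin cells (16.6 to 23.8, Clopper-Pearson). In the Wild-type library 2 of 471 insulin cells met the same rule, or 0.425% (0.0515 to 1.53), with Ins1 at 0.249% and 0.476% of their UMIs. The values in this paragraph and the next chose the cells and are given as a description. Across Ins1-low cells Ins1 ranged from 0 to 0.498% of UMIs with a median of 0.210%. In other Tg7 insulin cells it ranged from 0.501% to 18.5% with a median of 1.75%, and in Wild-type insulin cells the median was 19.2%. The limit cut through a continuum. The members nearest to it stood at 0.487%, 0.497% and 0.498%, and the nearest cells outside it at 0.501%, 0.502% and 0.505%. Of the 99 members, 75 had an Ins1 interval that lay wholly under 0.5%, and 379 of the 396 others had one wholly above. Only 2 members held no Ins1 UMI at all, and neither had more than 2279 UMIs.

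Ins2 differed far less. It took a median of 23.03% of UMIs in Ins1-low cells (lowest 3.04%, highest 54.9%), 28.5% in other Tg7 insulin cells and 44.6% in Wild-type insulin cells. Ins1-low cells and other Tg7 insulin cells overlapped over nearly the whole range of Ins2. Summed over cells, there were 0.00933 Ins1 UMIs for each Ins2 UMI in Ins1-low cells, 0.0786 in other Tg7 insulin cells and 0.437 in Wild-type insulin cells. Free RNA in the droplets bears on this ratio. In 22 Tg7 barcodes with at least 10 UMIs of macrophage markers and insulin under 3%, Ins1 took 0.00450% of UMIs and Ins2 0.0666%, a ratio of 0.0676. In 9 Tg7 barcodes with endothelial markers Ins1 took 0.00249%. The summed Ins1 share of Ins1-low cells was 0.248%, and 10% of them held 0.0369% or less. How much of their Ins1 was free RNA was not tested.

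Iapp, which encodes amylin, a peptide co-secreted with insulin, took a median of 13.5% of UMIs in Ins1-low cells (1.59% to 30.3%), 12.9% in other Tg7 insulin cells and 4.66% in Wild-type insulin cells. The Ins1-low cells were therefore strongly hormone-expressing. The 7 islet hormone genes together took 42.4% of their summed UMIs, 44.1% in other Tg7 insulin cells and 67.8% in Wild-type insulin cells. Because of this unequal share, levels of all other genes are given below as UMIs per 10000 UMIs of genes other than these 7. The shares of Ins2 and Iapp above are of all UMIs. On the non-hormone scale, ratios of summed levels to Wild-type are smaller by a factor of 1.79. Iapp is then less raised over Wild-type, and Ins2 further below it, than the shares show.

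**Figure D1:**
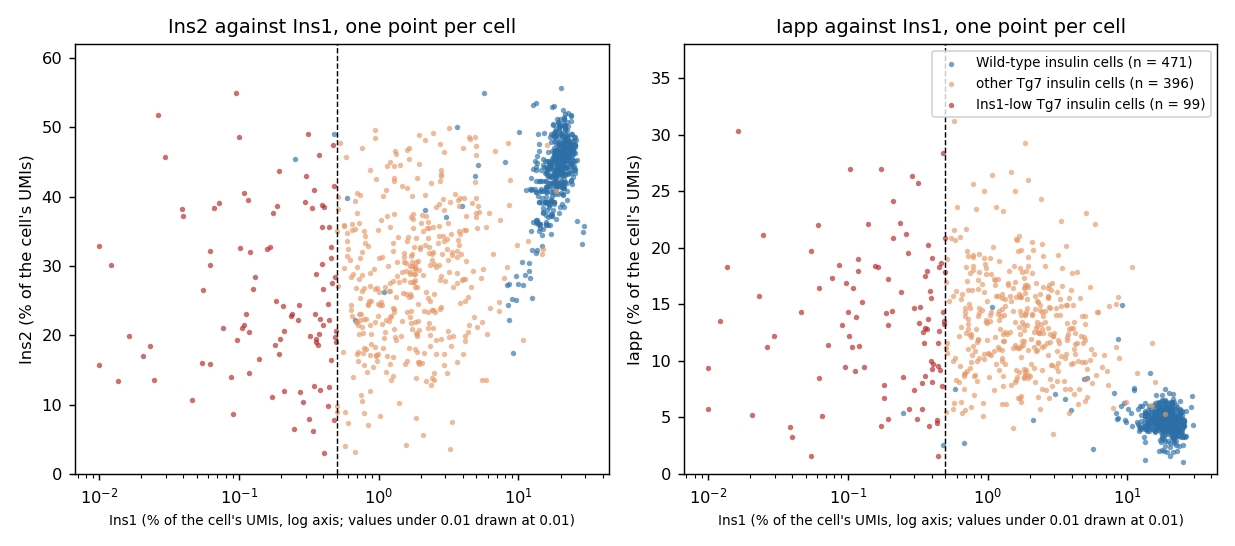
Ins2 (left) and Iapp (right) against Ins1, each in percent of a cell's UMIs, with 1 point per cell for 99 Ins1-low cells, 396 other Tg7 insulin cells and 471 Wild-type insulin cells. The Ins1 axis is logarithmic, and the dashed line is the limit of 0.5% that defines the Ins1-low cells. Tg7 cells form a continuous spread along Ins1 and overlap in Ins2 and Iapp, and Wild-type cells lie around 19.2% Ins1.

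The other islet hormones were nearly silent in most Ins1-low cells. The rule limits Gcg, Sst and Ppy but does not require near silence, and it sets no limit on Pyy. The median Gcg share was 0.0114% and 3 cells held over 0.5%. A single cell carried 55.3% of the group's 1832 Gcg UMIs. Ppy had a median of 0.00499% and reached 0.875%. Pyy had a median of 0, and 3 cells held over 0.5%, up to 1.35%. Among markers of other cell types, all 9 stellate cell markers were at 0 in Ins1-low cells, and 9 of 12 acinar, 6 of 9 endothelial, 5 of 6 lymphocyte and 6 of 11 macrophage markers were at 0. In the deeper groups of other Tg7 and Wild-type insulin cells fewer acinar (2 and 0) and macrophage markers (3 and 2) were at 0. The part of depth in these zeros was not tested. The summed level of macrophage markers was 0.615 in Ins1-low cells (0 to 6.41 per cell), 0.474 in other Tg7 insulin cells (0 to 5.69) and 1.04 in Wild-type insulin cells (0 to 57.1). For the endothelial list the summed levels were 0.158, 0.110 and 0.0546. The α-cell list reached 50.4, 49.1 and 29.4, and most of it was Ttr, a gene that β-cells also express, at 44.0, 43.6 and 26.9. The δ-cell list stood at 1.77, 1.67 and 0.620, the list of γ- and ε-cells at 1.91, 1.73 and 0.583, and the ductal list at 9.46, 8.85 and 9.56. The δ-cell list includes Rbp4 and the ductal list Spp1, both also named among the progenitor and dedifferentiation genes below. The tdTomato reporter was found in 24 of 99 Ins1-low cells, at a summed level of 0.268 against 0.216 in other Tg7 insulin cells (ratio 1.24, 0.833 to 1.80) and 0.474 in Wild-type insulin cells. None of 22 Tg7 macrophage barcodes held a tdTomato UMI, at a median depth of 4750.5 UMIs.

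The first comparison asks what else distinguished Ins1-low cells from the other insulin cells of the same library. Apart from Ins1 the groups were much alike. Of 10181 genes with at least 50 UMIs over both groups, 31 were at least 2-fold higher in Ins1-low cells (0.304%) and 197 at least 2-fold lower (1.93%), together 2.24%, and the median log2 ratio was -0.04. These counts, the background for the lists below, depend on the minimum and the weighting, with 1042 higher and 538 lower with no minimum, 3 and 9 from 200 UMIs on, and 175 and 392 with each cell weighing the same. Among the 1407 named genes with at least 1000 UMIs, none reached 2-fold, and the ratios ran from 0.587 to 1.46. The gene with the lowest of these ratios was G6pc2.

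Among the transcription factors of the β-cell, 2 of 17 were at least 2-fold lower, against 1.93% of all genes, and none was higher. This count is too small to be read against that background, and the median log2 ratio was -0.18. The first was Mafa, an activator of insulin transcription that marks mature β-cells. It had 15 UMIs in Ins1-low cells, a level of 0.118, against 195 UMIs or 0.247 in other Tg7 insulin cells (0.478 times, 0.262 to 0.808). Mafa was found in 11 of 99 Ins1-low cells and 113 of 396 others. The second was Hnf4a, a nuclear receptor, with only 9 UMIs (0.499 times, 0.222 to 0.982). When each cell weighed the same, Mafa was at 0.247 times and Hnf4a at 0.844 times. Glis3, which acts on the insulin promoter, was at 0.656 times (0.457 to 0.918), Rfx3 at 0.727 times (0.547 to 0.951) and Nkx2-2 at 0.774 times (0.625 to 0.950). By contrast, the other central factors were close to equal. Pdx1 stood at 0.449 in both groups (ratio 1.0, 0.743 to 1.33), Neurod1 at 1.53 and 1.46 (1.05, 0.895 to 1.22), Pax6 at 3.19 and 3.07 (1.04, 0.932 to 1.15) and Nkx6-1 at 1.76 and 1.91 (0.919, 0.795 to 1.06).

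Of 9 genes of β-cell maturity and secretion, 2 were at least 2-fold lower, against 1.93% of all genes, again too small a count to be read against it. The median log2 ratio was -0.40. One of the 2 rests on very few UMIs. Ucn3, the peptide urocortin 3 and a late marker of β-cell maturation, had 27 UMIs in 13 of 99 Ins1-low cells and 460 UMIs in 131 of 396 others. Its level was 0.213 against 0.583, or 0.365 times (0.238 to 0.538). Cox6a2 was at 0.420 times (0.132 to 1.02) on 5 UMIs, 80.0% of them in 1 cell. Slc30a8, the zinc transporter of the insulin granule, stood at 1.513 against 2.003 (0.755 times, 0.647 to 0.878), and Igf1r at 0.425 against 0.610 (0.697 times, 0.516 to 0.925). Ero1lb, an oxidase of proinsulin folding, was nearly level at 1.95 and 2.04 (0.954, 0.831 to 1.09), as were Ppp1r1a (0.918, 0.825 to 1.02) and Gjd2 (0.908, 0.750 to 1.09). Only Tmem27 was higher among these genes, at 21.7 and 19.7 (1.10, 1.06 to 1.15).

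None of 17 genes of glucose coupling and receptors was 2-fold apart, beside 2.24% of all genes, and the median log2 ratio was -0.06. Ratios lay on both sides of 1. G6pc2, the islet glucose-6-phosphatase, was at 1.62 in Ins1-low cells and 2.76 in the others (0.587 times, 0.506 to 0.678), with UMIs in 64 of 99 and 325 of 396 cells. Cacna1d, a calcium channel subunit, was at 0.717 against 1.06 (0.678 times, 0.540 to 0.842), but at 0.907 times when each cell weighed the same. The transporter Slc2a2 stood at 0.504 and 0.496 (1.02, 0.768 to 1.33). Both subunits of the ATP-sensitive potassium channel were higher, Abcc8 at 3.12 against 2.39 (1.30 times, 1.17 to 1.45) and Kcnj11 at 0.331 against 0.209 (1.58 times, 1.10 to 2.23).

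Of 15 progenitor and dedifferentiation genes, none was at least 2-fold higher (0.304% of all genes) and 1 at least 2-fold lower (1.93% of all genes), a count too small to be read against that background. Their median log2 ratio was 0.05. Aldh1a3, a retinaldehyde dehydrogenase and a known marker of this state, stood at 1.06 in Ins1-low cells and 1.02 in the other Tg7 insulin cells (1.04, 0.860 to 1.25). It was found in 33 of 99 and 209 of 396 cells. When each cell weighed the same, its ratio was 1.36, above that interval. Cd81 was at 7.46 and 6.91 (1.08, 1.006 to 1.16), Spp1 at 4.48 and 4.63 (0.967, 0.883 to 1.06) and Rbp4 at 1.48 and 1.4 (1.06, 0.902 to 1.24). Serpina7, which encodes thyroxine-binding globulin, was higher at 4.63 against 3.39 (1.37 times, 1.25 to 1.496), and at 1.245 times when each cell weighed the same. The gene that was 2-fold lower was Dlk1, an imprinted gene of progenitors, at 0.528 against 1.06 (0.497 times, 0.381 to 0.638).

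Gast, the hormone gastrin, appeared to be higher in Ins1-low cells, at 0.906 against 0.528 (1.72 times, 1.38 to 2.12). However, 70 of its 115 UMIs lay in 1 cell. Without that cell the ratio was 0.683, an alternative chosen after seeing the data. Gast was found in 27 of 99 Ins1-low and 120 of 396 other cells, and in none of the 22 macrophage barcodes. Cck was even more uneven, with 48 of 49 UMIs in 1 cell. Of the other secreted peptides, Cartpt was at 2.03 against 1.53 (1.33 times, 1.15 to 1.52) and Pdyn, prodynorphin, at 2.99 against 3.35 (0.894, 0.801 to 0.996). Over the list of gut hormones and neuropeptides, none of 8 genes was 2-fold higher and 1 was 2-fold lower (1.93% of all genes), Ucn3, which stands on this list too, with a median log2 ratio of -0.14.

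The genes with the highest ratios illustrate how far single cells weighed. Cenpf, a kinetochore protein, reached a ratio of 13.5, but all 74 UMIs came from 1 cell, and so did 75 of 84 UMIs of Stmn1. That cell had 236 UMIs of 10 genes of the cell cycle and was the only Ins1-low cell with at least 10, against 2 of the other Tg7 and 3 of the Wild-type insulin cells. Jpt1 was at 2.18 times (1.64 to 2.87) with 44.4% of its UMIs in 1 cell. More evenly spread were Fxyd3 and the class I histocompatibility gene H2-T23. Fxyd3, a regulator of the sodium pump, was at 0.985 against 0.358 (2.75 times, 2.21 to 3.41). It was found in 37 of 99 Ins1-low and 130 of 396 other cells, and 27 of its 125 UMIs in Ins1-low cells lay in 1 cell. H2-T23 was at 0.457 against 0.233 (1.96 times, 1.43 to 2.64). At the lower end Mccc1, a subunit of methylcrotonyl-CoA carboxylase, had 2 UMIs against 106 (0.117 times, 0.0140 to 0.434). Igsf9b had 15 against 248 (0.376 times, 0.207 to 0.632) and Sec16b, of the ER exit sites, 9 against 143 (0.391 times, 0.175 to 0.763). Of the 12 lowest ratios, 10 rested on fewer than 10 UMIs in Ins1-low cells.

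Other programmes hardly separated the groups. In the unfolded protein response, 17 of 33 genes were higher and 16 lower, none of them 2-fold (2.24% of all genes), with a median log2 ratio of 0.02. Within it, the stress factor Atf3 was lower at 1.10 against 1.68 (0.651 times, 0.542 to 0.776), and the folding enzyme Pdia6 higher at 8.18 against 6.88 (1.19 times, 1.11 to 1.27). When each cell weighed the same, Atf3 was at 0.842 times. Of 24 genes of glycolysis and the glucose response 19 were above a ratio of 1, beside 4525 of all 10181 genes, and the median log2 ratio of all 24 was 0.20. They included Eno1 (1.62 times, 1.26 to 2.06) and Pfkfb3 (1.66 times, 1.138 to 2.36), whereas Pfkfb2 was lower on 7 UMIs (0.403 times, 0.158 to 0.858). Among the granins and processing enzymes the median was 0.04, with Chga at 99.0 against 84.0 (1.18 times, 1.16 to 1.20) and Scg5 at 29.1 against 23.8 (1.22 times, 1.18 to 1.27). The medians were 0.01 for 13 genes of epithelial-to-mesenchymal transition, -0.03 for 22 epithelial genes and -0.10 for 20 known miR-7 targets. Of 81 cytosolic ribosomal protein genes 68 were below a ratio of 1, beside 5656 of all 10181 genes, with a median of -0.09. Over all genes compared the median was -0.04, so these list medians lay within 0.25 of it except that of the β-cell maturity genes.

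**Figure D2:**
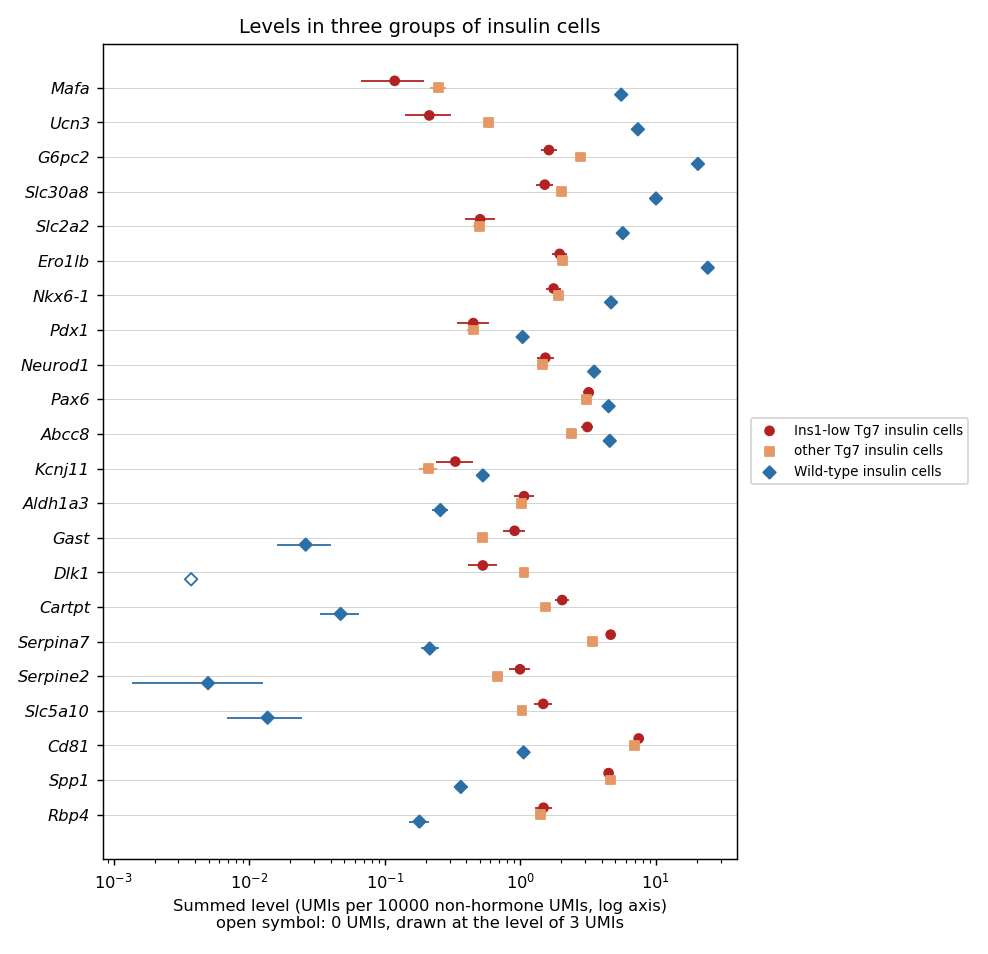
Summed level of 22 genes in Ins1-low Tg7 insulin cells (99 cells), other Tg7 insulin cells (396) and Wild-type insulin cells (471), in UMIs per 10000 non-hormone UMIs on a logarithmic axis, with 95% Poisson intervals for counting error as lines. Mafa, Ucn3 and G6pc2 lie lowest in the Ins1-low cells, Aldh1a3, Pdx1 and Slc2a2 coincide in both Tg7 groups, and Dlk1 was at 0 in Wild-type cells (open symbol).

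To see whether these differences were graded, the 495 Tg7 insulin cells were split into 6 bins of Ins1 share, with 26, 28 and 45 cells under 0.1%, from 0.1 to 0.25% and from 0.25 to 0.5%, and 101, 202 and 93 cells from 0.5 to 1%, from 1 to 3% and at 3% or more. The first 3 bins are the Ins1-low cells. All cells come from 1 library, and median depth ran from 16706 UMIs in the lowest bin to 33334 in the bin from 1 to 3%, so the bins are a description. Mafa stood at 0.0354, 0.123, 0.155, 0.177, 0.207 and 0.477 from the lowest to the highest bin, an ordered series, although it rests on 1, 5 and 9 UMIs in the first 3. Ucn3 was at 0.142, 0.271, 0.206, 0.385, 0.583 and 0.891, and G6pc2 at 1.52, 1.31, 1.89, 2.29, 2.76 and 3.51. For both genes the intervals of the 3 lowest bins overlapped one another, and each lay under that of the highest bin. Glis3 was ordered too, from 0.142 to 0.533. The levels of Nkx6-1, at 1.81, 1.73, 1.75, 1.95, 1.85 and 2.03, and of Slc2a2, at 0.567, 0.665, 0.361, 0.553, 0.416 and 0.645, had no such order.

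Other genes ran the opposite way. Serpina7 was at 5.74, 5.22, 3.68, 3.48, 3.49 and 2.95, and Abcc8 at 3.40, 3.30, 2.86, 2.91, 2.37 and 1.67. Aldh1a3 was at 1.06, 1.18, 0.981, 1.20 and 1.08 in the first 5 bins and at 0.582 in the cells with most Ins1. Set against these 93 cells alone, an alternative chosen after seeing the data, Ins1-low cells had 1.83 times the Aldh1a3 (1.38 to 2.43), 1.57 times the Serpina7 (1.39 to 1.79), 0.248 times the Mafa, 0.462 times the G6pc2 and 1.87 times the Abcc8.

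**Figure D3:**
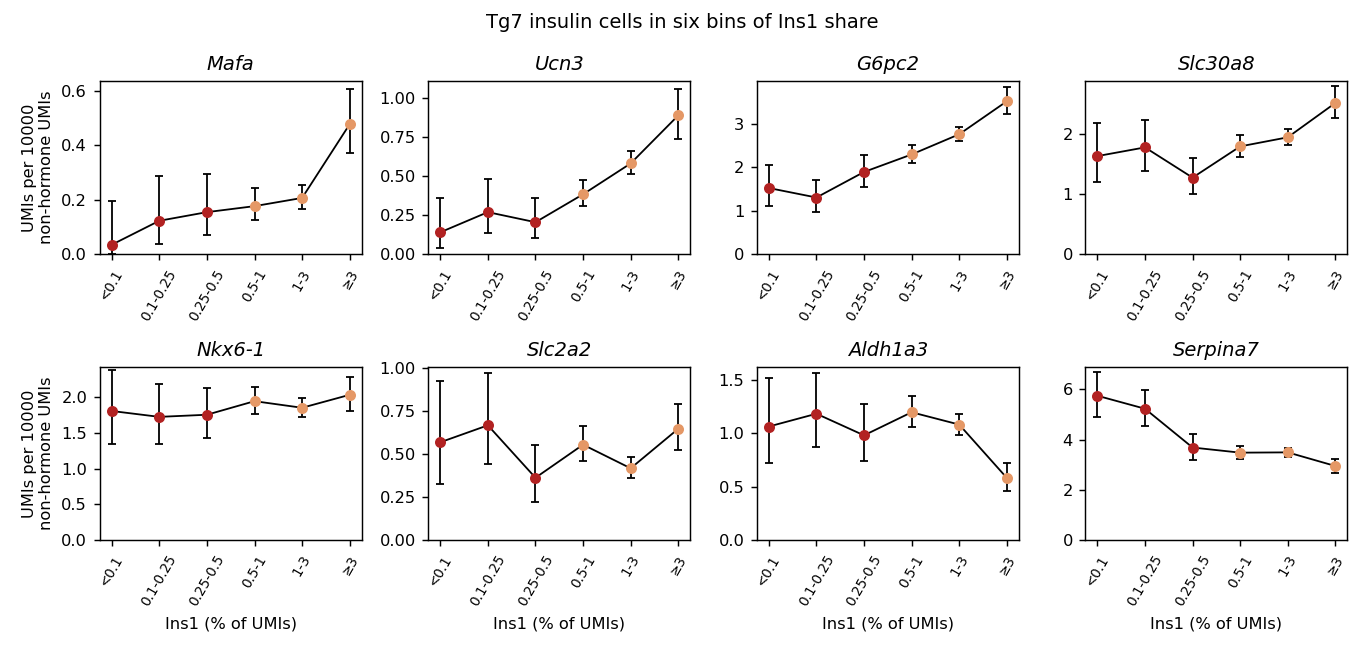
Level of 8 genes in 6 bins of Ins1 share (percent of UMIs) over the 495 Tg7 insulin cells, in UMIs per 10000 non-hormone UMIs, with 95% Poisson intervals for counting error. Red points are the 3 bins of Ins1-low cells and orange points the other Tg7 insulin cells. Mafa, Ucn3 and G6pc2 are highest in the bin at 3% or more, Nkx6-1 stays between 1.73 and 2.03, and Serpina7 is highest in the lowest bin.

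To compare shares of cells at matched depth, each cell was thinned to 2000 non-hormone UMIs, which makes every share smaller. This left out 10 of 99 Ins1-low cells and 5 of 396 others as too shallow. A Mafa UMI was then found in 0 of 89 Ins1-low cells (0 to 4.06, which bounds detection after thinning and not expression) and in 4.60% of 391 others (2.75 to 7.18). Before thinning the shares were 11.1% and 28.5%. Ucn3 was found in 4.49% of thinned Ins1-low cells (1.24 to 11.1) and 8.18% of the others (5.67 to 11.4), and G6pc2 in 21.3% (13.4 to 31.3) and 32.2% (27.6 to 37.1). Aldh1a3 was found in 16.9% (9.75 to 26.3) and 14.8% (11.5 to 18.8), whereas unthinned shares had been 33.3% and 52.8%. None of these 4 genes had a UMI in the 22 Tg7 macrophage barcodes, whose median depth was 4750.5 UMIs. The intervals of both groups overlapped for each of the 4 genes. They also overlapped for Serpina7, found in 44.9% of thinned Ins1-low cells (34.4 to 55.9) and 42.5% of the others (37.5 to 47.5).

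The second comparison sets Ins1-low cells beside Wild-type insulin cells and so combines genotype, library and the choice by Ins1, which cannot be told apart here. Of 10036 genes compared, 460 were at least 2-fold higher (4.58%) and 922 at least 2-fold lower (9.19%), together 13.8%, with a median log2 ratio of -0.11. The scale decides this balance. Scaled to all UMIs, hormones included, every ratio to Wild-type was multiplied by 1.79, the median became 0.73, and 2989 genes were at least 2-fold higher and 249 lower. With TMM factors, the counts of genes 2-fold higher and lower stayed within 1.5-fold of those on the non-hormone scale. For orientation, the other Tg7 insulin cells were 2-fold higher than Wild-type cells in 6.89% and lower in 5.88% of 11042 genes. The comparisons share cells, so values are only given side by side. The gene lists were chosen with earlier results of these data known, so their counts below are a description and not a test.

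The genes of the mature β-cell were far lower in both Tg7 groups than in Wild-type insulin cells. In Ins1-low cells 10 of 11 maturity genes were at least 2-fold lower, against 9.19% of all genes, with a median log2 ratio of -3.14. In other Tg7 insulin cells it was also 10 of 11, against 5.88% of all genes, with a median of -3.45. Ucn3 stood at 0.213 against 7.36 (0.0289 times, 0.0190 to 0.0421), Slc30a8 at 1.51 against 10.01 (0.151 times, 0.130 to 0.174) and Ero1lb at 1.95 against 24.1 (0.0807 times, 0.0709 to 0.0915). Sytl4, or granuphilin, a granule docking protein, was at 0.0610 times (0.0372 to 0.0945). Neuropeptide Y (Npy) had 0 UMIs in both Tg7 groups and 168 in Wild-type cells, in 8 cells only. Of the transcription factors, 8 of 17 were at least 2-fold lower, against 9.19% of all genes, with a median log2 ratio of -0.67 that turned to 0.17 when scaled to all UMIs. Mafa stood at 0.118 against 5.54 (0.0213 times, 0.0119 to 0.0352), Pdx1 at 0.449 against 1.04 (0.433 times, 0.325 to 0.566), Nkx6-1 at 0.377 times (0.328 to 0.431) and Neurod1 at 0.437 times (0.376 to 0.506). Pax6, a known miR-7 target, was at 0.713 times (0.642 to 0.791), and Foxo1 at 0.994 times. Scaled to all UMIs, Mafa was still at 0.0381 times, but Pdx1 was at 0.773 times (0.580 to 1.011), Nkx6-1 at 0.673 times and Neurod1 at 0.781 times, and Pax6 and Foxo1 were above Wild-type, at 1.27 and 1.78 times.

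For glucose sensing, 8 of 19 genes were at least 2-fold lower, against 9.19% of all genes, and none higher. The median log2 ratio was -0.83, and 0.00321 when scaled to all UMIs. In other Tg7 insulin cells 9 of 19 were at least 2-fold lower, against 5.88% of all genes there, with a median of -0.93. G6pc2 stood at 1.62 against 20.4 (0.0796 times, 0.0690 to 0.0913) and Slc2a2 at 0.504 against 5.69 (0.0886 times, 0.0681 to 0.113). Ffar1, the receptor for long-chain fatty acids, was at 0.0689 times (0.0329 to 0.127), and Trpm5, a cation channel, had 2 UMIs against 1370. Closer to the Wild-type level were Abcc8 at 0.684 times (0.615 to 0.759) and Kcnj11 at 0.626 times (0.445 to 0.861). Scaled to all UMIs these 2 turned direction, to 1.22 times (1.099 to 1.36) and 1.12 times (0.795 to 1.54), whereas G6pc2 and Slc2a2 were still at 0.142 and 0.158 times. The lowest ratios of all included Tmem215, with 0 UMIs against 2668 (at least 140-fold lower, from a floor of 3 UMIs over the group), and Nupr1, a stress-induced nuclear protein, with 16 against 4889 (0.0208 times, 0.0119 to 0.0338). Slc2a2 and G6pc2 in other Tg7 insulin cells were at 0.496 and 2.76, so the low level of Slc2a2 was shared by both Tg7 groups, and G6pc2 was lower in the Ins1-low cells than in the others.

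Of 15 progenitor and dedifferentiation genes, 10 were at least 2-fold higher in Ins1-low than in Wild-type insulin cells and 2 lower, with a median log2 ratio of 2.82, against 4.58% and 9.19% of all genes. In other Tg7 insulin cells 11 of 17 were higher and 2 lower, against 6.89% and 5.88% of all genes there, with a median of 2.33. This list, too, was chosen with earlier results of these data known, so its counts are a description. Aldh1a3 stood at 1.06 against 0.257 (4.14 times, 3.31 to 5.17), Cd81 at 7.07 times (6.44 to 7.76), Rbp4 at 8.24 times (6.60 to 10.3), Spp1 at 12.3 times (10.7 to 14.2) and Serpina7 at 21.6 times (18.2 to 25.7). Gast stood at 0.906 against 0.0260 (34.8 times, 21.7 to 58.3), and at 13.8 times without the 1 cell that carried most of it. Dlk1 had 67 UMIs against 0 (at least 142-fold higher). Neurog3, the endocrine progenitor factor, had only 4 UMIs against 8 in Wild-type cells, and Sox9 had 0 against 3. The Ins1-low cells held 1269139 non-hormone UMIs and the Wild-type cells 8061987, so these raw counts give no direction. Both genes were under the minimum of 50 UMIs and were not compared. The 2 lower genes were Nupr1, given above, and Myc, with 2 UMIs against 48.

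Among the highest ratios were genes almost unseen in Wild-type insulin cells. Ptger3, a prostaglandin E receptor, had 129 UMIs against 1, and Serpine2, a protease inhibitor, 126 against 4 (200 times, 76.2 to 746). Slc5a10, a sugar cotransporter, was at 108 times (59.0 to 220), Sorcs2 at 90.8 times (48.0 to 194), Basp1 at 79.1 times (42.9 to 162) and Cartpt at 43.1 times (30.6 to 62.3). All of these were also present in the other Tg7 insulin cells, with Ptger3 at 0.870, Serpine2 at 0.680 and Basp1 at 1.143, against 1.02, 0.993 and 1.08 in Ins1-low cells. Basp1 was also found in 63.6% of thinned Tg7 macrophage barcodes, and the macrophage list stood at 0.615 in Ins1-low and 1.04 in Wild-type cells, as given above.

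**Figure D4:**
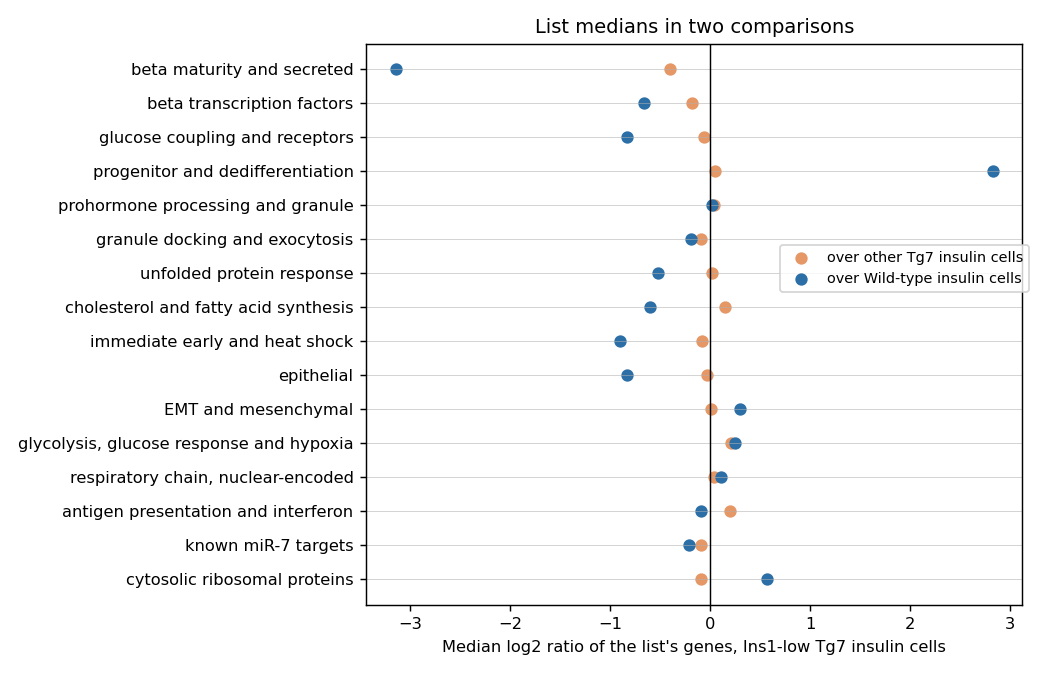
Median log2 ratio of the genes of 16 lists in Ins1-low Tg7 insulin cells over other Tg7 insulin cells (orange) and over Wild-type insulin cells (blue). Against other Tg7 insulin cells the medians lie between -0.40 and 0.20, and against Wild-type cells they run from -3.14 for the β-cell maturity list to 2.82 for the progenitor and dedifferentiation list. Scaled to all UMIs, the Wild-type medians of the β-cell transcription factors and of glucose coupling turn from -0.67 and -0.83 to 0.17 and 0.00321.

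Ins1-low cells were not uniform. Clustered on genes other than the hormones, they fell into 3 clusters of 37, 43 and 19 cells, which are described by their leading genes and given no names. Cluster 1 had Gast as its first gene, but 70 of the 88 Gast UMIs there lay in the 1 Gast-rich cell named above, so that cell decides its rank. The next genes were the asparagine synthetase Asns, Tmigd3, Dbi and Impdh1, and the median Ins2 share was 30.2%. Cluster 2 held the deepest cells, with a median of 27677 UMIs and 4617 genes, and the lowest Ins2, at 20.4%. Its leading genes included Scn3a, Ank2, Fam120a and Rbm5. Cluster 3 was the shallowest, with a median of 14707 UMIs, and was led by Atf3, Serpine2, Calb1, Necab2 and Gadd45g, followed by the immediate early genes Fos and Fosb among its 10 leading genes. Its Iapp share, 8.69%, was below the 14.7% and 13.2% of the other clusters. Median Ins1 was similar in the 3 clusters, at 0.157%, 0.247% and 0.174% of UMIs.

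Some of the genes that distinguish Tg7 from Wild-type insulin cells were divided between these clusters. Only a fixed set of genes was followed. Pdyn stood at 4.45 in cluster 1, 2.82 in cluster 2 and 0.0620 in cluster 3, where it had a single UMI. Cartpt ran from 3.03 through 1.81 to 0.496, Aldh1a3 from 1.62 through 0.869 to 0.496, and Dlk1 from 0.911 through 0.428 to 0 UMIs. Serpine2 ran the other way, from 0.246 through 0.969 to 2.98. Mafa stood at 0.0246, 0.171 and 0.124, on 1, 12 and 2 UMIs. In contrast, Nkx6-1 (1.80, 1.64 and 2.171) and Pdx1 (0.369, 0.485 and 0.496) were alike. The clusters were made from these genes, so the differences describe them and are not tested, and the part of depth in them was not tested.

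**Figure D5:**
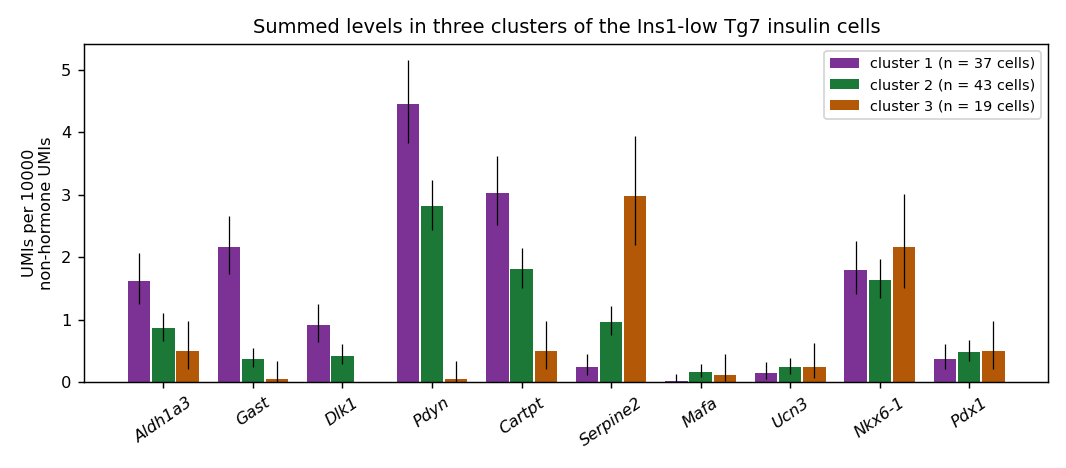
Summed level of 10 genes in the 3 clusters of Ins1-low Tg7 insulin cells (37, 43 and 19 cells), in UMIs per 10000 non-hormone UMIs, with 95% Poisson intervals for counting error. Pdyn, Cartpt and Aldh1a3 are highest in cluster 1, Serpine2 is highest in cluster 3 at 2.98, and Nkx6-1 and Pdx1 are similar in all 3.

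When all 495 Tg7 insulin cells were clustered together in the same way, Ins1-low cells formed no cluster of their own. They made up 9.80% (4.80 to 17.3), 16.5% (9.73 to 25.4), 23.9% (16.9 to 32.0), 15.7% (7.02 to 28.6) and 29.7% (21.4 to 39.1) of clusters 1 to 5. The cluster with the largest share, led by Hspb1, Gadd45g, Rab31, Klf2 and Serpine2, was also the shallowest, at a median of 15755 UMIs, and the one with the smallest share the deepest, at 44863 UMIs. The part of depth in these shares was not tested. Within each of the 5 clusters G6pc2 was lower in Ins1-low cells than in the cluster's other cells, at 0.584, 0.696, 0.438, 0.644 and 0.665 times, with only the interval of cluster 4 reaching 1 (0.396 to 1.0). Ucn3 stood at 0.175, 0.521, 0.231, 0.855 and 0.382 times, on 2 to 10 UMIs each, and the intervals of cluster 2 (0.164 to 1.27) and cluster 4 (0.394 to 1.66) included 1. Mafa, with at most 6 UMIs per cluster, ranged from 0.0799 to 1.24 times. Aldh1a3 went both ways, from 0.125 times in cluster 1 (0.0151 to 0.458) to 2.41 times in cluster 4 (1.48 to 3.84). So did Serpina7, from 0.801 times in cluster 1 (0.583 to 1.08) to 1.93 times in cluster 2 (1.59 to 2.33).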

How the data were processed

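Each genotype was 1 library made on the 10x Genomics platform. The UMI counts were used as the authors deposited them, with no normalization. The submitters' processing notes name bcl2fastq 2.17.1.14, Cell Ranger 3.0.2 with STAR, and the genome build mm10. Barcodes were filtered and grouped as described. No doublets were removed in the main analysis, and Scrublet called 14 of 1006 Tg7 barcodes, 1 of them a member. Group sums of counts were divided by the group's UMIs without Ins1, Ins2, Iapp, Gcg, Sst, Ppy and Pyy, times 10000. Ratios carry the conditional exact binomial interval and levels the Poisson interval, checked on simulated counts. A group at 0 was given a floor of 3 UMIs. With 1 library per group no p-value was computed, and 2-fold is a rule of size. Genes were compared from 50 UMIs over both groups on. Named genes were those of 5 β-cell lists, the 12 highest and 12 lowest ratios to other Tg7 cells and 8 and 8 to Wild-type cells (at least 100 UMIs), and up to 4 and 2 per other list. Calb1, Necab2 and other leading genes come from the clusters (Leiden, scanpy 1.11.5, resolution 0.5, 15 components). The members and the gene lists were chosen with earlier results of these data known. Alternatives included edgeR 4.0.16 TMM factors. Some genes that this rule would name are not reported here.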

Additional observations from a re-analysis of the deposited data

How the results depend on the processing

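No paired analysis was possible because each group is 1 library and the labels carry no replicate numbers. Over the alternatives, 173 of the 203 main values (group size, counts of 2-fold genes and 5 list medians) stayed within 1.5-fold (counts) or within the counting interval of the main value (shares, and medians by the typical interval of a gene of the list), and 30 moved. Of 756 further values (ratios of single genes, numbers of genes compared and medians of all genes), 89 moved. No value past 2-fold changed sign. The limit on Ins1 sets the group's size and, through it, the counts. With Ins1 under 0.25% there were 54 cells (10.9% of Tg7 insulin cells), 80 genes 2-fold higher and 442 lower than in other Tg7 insulin cells, and a maturity median against Wild-type of -2.54. With Ins1 under 1% the values were 200 cells (40.4%), 14 and 19 genes, and -3.56. Scaled to all UMIs, the median of all genes against Wild-type moved from -0.11 to 0.73, with 2989 genes higher and 249 lower. The medians of the β-cell transcription factors, maturity, glucose coupling, progenitor and gut hormone lists were then 0.17, -2.30, 0.00321, 3.66 and 1.136. The direction of the first and the third thus depends on the scaling. TMM factors moved none of the main values. With each cell weighing the same, 175 genes were higher and 392 lower than in other Tg7 insulin cells, and Slc5a10 went from 1.43 to 0.989 times. Without a minimum of UMIs the counts were 1042 and 538 (1829 higher against Wild-type, and a progenitor median of 1.80). From 200 UMIs on they were 3 and 9, and 185 and 472 against Wild-type with a maturity median of -2.73. Against the cells with Ins1 of 3% or more, chosen after seeing the data, 17 genes were higher and 30 lower, of 6774 compared. Ucn3, Mafa and G6pc2 stayed lower than in other Tg7 insulin cells under every alternative, at 0.239 to 0.488, 0.247 to 0.566 and 0.462 to 0.695 times. The alternatives on the minimum of UMIs cannot change a gene's own ratio, and scaling to all UMIs multiplies every ratio between the Tg7 groups by the same factor. Leaving out doublets, shallow cells, cells with weaker insulin or the cycling cells moved none of the main values. Counts of 15 or fewer UMIs, as for Mafa, limit what single genes can show, and with 1 library per genotype no difference has a replicate check.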
